A study of Mus musculus with 4 samples.

Results

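Solute carriers (SLC) are membrane proteins that move small molecules and ions across the plasma membrane or across the membranes of lysosomes, the Golgi apparatus and other organelles. Families are defined by sequence and mechanism, so that members of a family often share a substrate, such as zinc in SLC30 and SLC39. In macrophages that turn into osteoclasts, carriers set the supply of vitamins, nucleosides and metals, the pH and volume of the cell, and the content of lysosomes, which osteoclasts secrete onto bone. The genes described here are the expressed solute carriers outside the mitochondrial, proton-coupled metal and main amino acid and lactate families. The rule that chose them uses gene names and no fold change, but it was written with earlier results of these data known. It takes protein-coding genes of the authors' filtered count table, whose filter is not described. Their names begin with Slc and a number, without Slc25a, Slc7a, Slc38a, Slc43a, Slc16a and Slc11a and without Slc1a5, Slc3a2, Slc19a1, Slc2a1, Slc4a2, Slc9b2 and Slc40a1. This rule gave 121 genes of 11109 in that table and of 28443 genes counted, and 118 of them had enough counts to be tested. The proteins of Slc9a3r1 (a scaffold) and Slc4a1ap are named after carriers and are not carriers themselves.

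RNA-seq was performed on mouse bone marrow-derived macrophages (BMDMs), from mice 8 weeks old, that had been cultured for 1 day with 50 ng/ml of the osteoclast-inducing cytokine RANKL and that the labels call early osteoclasts. MYC-WT cells (2 libraries) came from mice of strain LysM cre, and MYC-deficient cells (2 libraries) from strain MYC f/fLysM cre, in which Cre recombinase removes the floxed Myc gene. Both genotypes therefore carry the Cre, which is driven by the lysozyme M promoter of myeloid cells. The study calls the replicates biological, and the sources read do not state whether each library is 1 animal or a pool.

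The libraries held 27544806 to 35794698 counts, so that 1 CPM (counts scaled to the library total, with TMM, edgeR's trimmed mean of M-values, as the correction) stood for 27 to 35.7 counts. Myc itself had 7656 and 7284 counts in MYC-WT and 633 and 667 counts in MYC-deficient libraries, the direction the labels give. Of 7 macrophage markers 4 were higher in MYC-deficient cells (57.1%, against 6.06% of all genes tested), among them Csf1r, Adgre1 and Cd68. Lyz2 alone had a negative log2 fold change (-0.42). Of 8 tested osteoclast markers 2 were lower (25%, against 9.91%), and 2, Mmp9 and Dcstamp, were above 0 (0.49 and 0.37) and did not pass. Calcr, a marker of late osteoclasts, had no count. Summed levels of markers of other myeloid cells were also higher in MYC-deficient cells. Nearly all single markers had positive log2 fold changes, although few passed the test given below. Above 0 were 7 of 8 monocyte, 10 of 10 tested neutrophil and 7 of 7 tested dendritic cell markers (medians 1.65, 1.39 and 1.95). Those that passed as higher were 25%, 10% and 28.6% in this order, against 6.06% of all genes tested. The summed level of 8 monocyte markers was 65.9 and 45.7 CPM in MYC-WT and 274 and 171 CPM in MYC-deficient cells (2 of 8 higher), that of 11 neutrophil markers 112 and 51.9 against 313 and 139 CPM (1 of 10 tested higher), and that of 8 dendritic cell markers 26.5 and 67.7 against 129 and 303 CPM (2 of 7 tested higher). Most of the dendritic cell sum was Itgax, at 23.6 and 65.7 against 121 and 296 CPM, which was not among the 2 higher. Those 2, Cd209a and Ccl22, had at most 28 and 99 counts in any library. Of the monocyte markers Ccr2 had 16.6 and 11.8 against 147 and 108 CPM, and 1, Vcan, went the other way (log2 fold change -0.56). Ly6g, which defines neutrophils, had 2 to 4 counts per library, and Cd3e, Cd3d, Hba-a1 and Slc4a1 had none. The part of such cells in the differences below was not tested, and in bulk RNA fewer cells of a type and less RNA per cell cannot be told apart.

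Of the 118 tested solute carriers, 14 were higher and 10 lower in MYC-deficient cells, and 94 did not pass (edgeR's quasi-likelihood test, adjusted p under 0.05 over all 13436 genes tested and a fold change over 1.5, the thresholds of the study). Those that passed were 20.3% of the carriers, against 16% of all genes tested. Higher carriers were 11.9% of those tested, against 6.06% of all genes, and lower carriers 8.47%, against 9.91%. Slc9a3r1 and Slc4a1ap are counted as carriers here and below. Without them 13 of 116 were higher (11.2%) and 10 lower (8.62%). The median log2 fold change was 0.146 over the carriers and -0.012 over all genes tested, with 72 carriers above 0 and 46 below. Among genes of the filtered table alone, from which the carriers were taken, 6.9% were higher and 11.2% lower. By comparison, 6 of 36 mitochondrial SLC25 carriers and 5 of 19 carriers of the SLC7, SLC38 and SLC43 amino acid group (with Slc1a5 and Slc3a2) were lower, and none in either group was higher. The difference between these groups of carriers was not tested. Counts per class and list below stand beside these shares of all genes, and most classes hold few genes.

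The calls rest on 2 libraries per genotype. Without MYC-WT replicate 1 most of the 24 carriers lost their call, and without MYC-WT replicate 2 all of them did. Fewer of all genes tested passed in both of these fits too, so the loss was not particular to the carriers. None of the 24 changed direction in either. In each such fit 1 genotype has a single library, which is assumed to vary like the pair of the other. Without either MYC-deficient library 9 to 10 carriers were lower and 10 to 18 higher. In 81 of the 118 tested carriers (68.6%) the libraries of the genotypes did not overlap, against 64.2% of all genes tested.

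**Figure D1:**
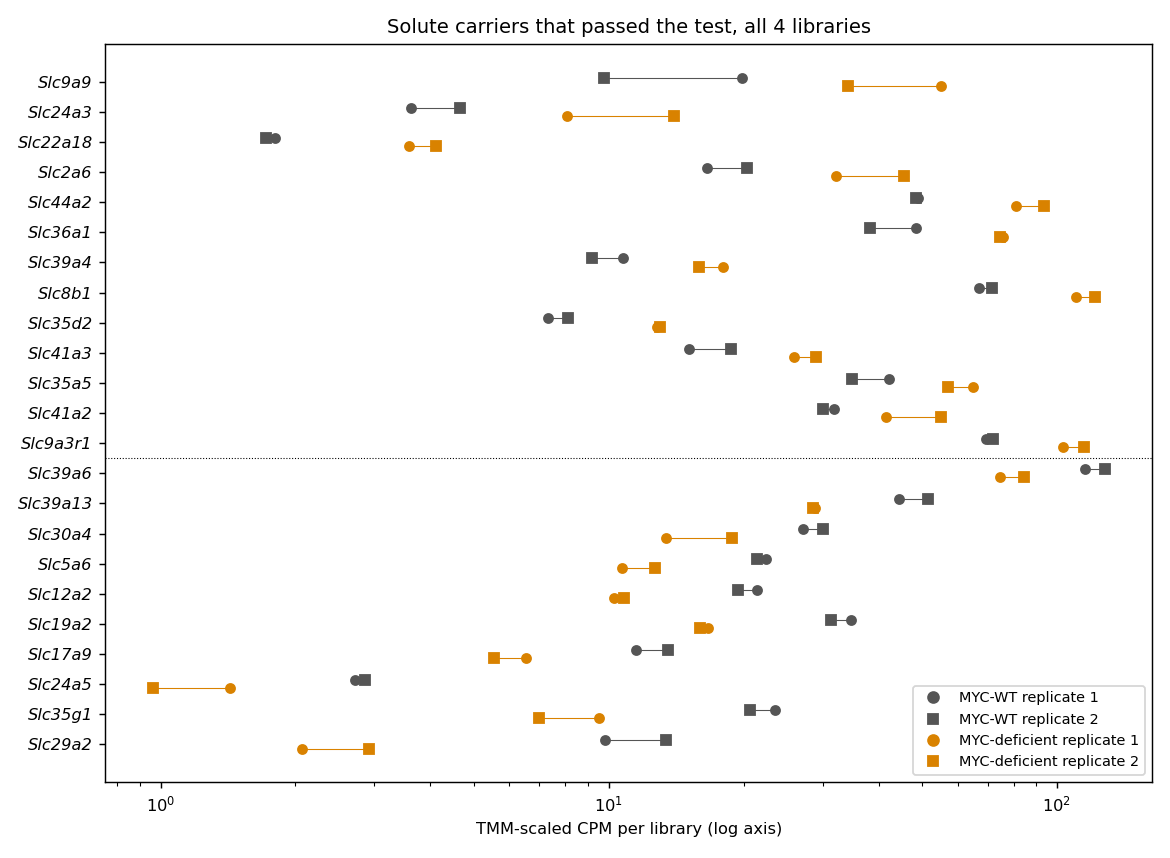
TMM-scaled CPM (log axis) of 23 solute carriers that passed the test, in each of the 4 libraries (circles, replicate 1, and squares, replicate 2, joined by a line within a genotype), ordered by fold change with 13 higher carriers above the dotted line and 10 lower below. In every one of them the MYC-WT and MYC-deficient libraries do not overlap, as in 64.2% of all genes tested. These genes are drawn because they passed, so this is no separate support.

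MYC binds DNA as a dimer with MAX at the E-box CACGTG, a motif that other factors also bind, among them the regulators of lysosomal genes. Promoter windows (250 bases before to 50 after a RefSeq start, GRCm38.p6) were matched for 94 of the 121 genes, with 127 windows. CACGTG, which reads the same on both strands, was in 15% of these windows and in 9.95% of the 12528 windows of genes tested. It was in none of the 8 windows of 7 lower carriers and in 3 of the 12 windows of 10 higher carriers, those of the lysosomal amino acid carrier Slc36a1, the Golgi carrier Slc35a5 and the magnesium carrier Slc41a3. The window of Slc41a3 is at a start inside the gene. A core of the metal response element (TGCACNC or TGCGCNC, either strand, which may overlap each other) was in 8 of 17 windows of zinc carriers, or 47.1%, in 41.7% of windows of all the carriers, in 50% of those of the higher and 50% of those of the lower carriers, and in 34.9% of windows of genes tested. These are matches of letters, not bound sites.

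The 250 bases before the start are shown for a pair of higher carriers with the motif, Slc36a1 (chr11:55204090-55204339, plus strand) and Slc35a5 (chr16:45158674-45158923, minus strand), and for the nucleoside carrier Slc29a2 (chr19:5023756-5024005, plus strand) and the thiamine carrier Slc19a2 (chr1:164248796-164249045, plus strand), both lower, in which it is absent. Each reads 5′ to 3′ on the strand of the gene, from RefSeq on GRCm38.p6, with CACGTG in capitals. Slc36a1 has a further CACGTG that spans the start and is not shown.
Slc36a1: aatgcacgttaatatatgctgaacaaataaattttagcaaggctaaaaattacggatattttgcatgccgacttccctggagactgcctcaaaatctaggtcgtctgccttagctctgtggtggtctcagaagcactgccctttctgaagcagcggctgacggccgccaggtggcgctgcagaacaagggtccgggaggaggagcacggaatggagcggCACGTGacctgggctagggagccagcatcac
Slc35a5: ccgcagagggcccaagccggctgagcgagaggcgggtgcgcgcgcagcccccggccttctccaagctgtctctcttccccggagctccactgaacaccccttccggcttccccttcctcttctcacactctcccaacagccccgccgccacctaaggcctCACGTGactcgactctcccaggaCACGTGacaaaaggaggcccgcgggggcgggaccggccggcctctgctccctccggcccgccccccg
Slc29a2: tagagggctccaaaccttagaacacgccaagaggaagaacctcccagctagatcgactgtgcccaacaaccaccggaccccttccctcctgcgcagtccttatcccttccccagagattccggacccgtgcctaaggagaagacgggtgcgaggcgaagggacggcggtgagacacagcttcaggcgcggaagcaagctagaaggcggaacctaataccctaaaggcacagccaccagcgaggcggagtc
Slc19a2: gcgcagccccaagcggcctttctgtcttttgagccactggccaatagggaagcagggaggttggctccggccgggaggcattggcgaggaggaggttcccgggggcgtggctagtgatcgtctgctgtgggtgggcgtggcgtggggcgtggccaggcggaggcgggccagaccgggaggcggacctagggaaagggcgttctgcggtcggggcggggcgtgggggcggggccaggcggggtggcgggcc

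Nucleoside carriers supply bases and nucleosides for salvage. The largest decrease of all tested carriers was that of Slc29a2, an equilibrative transporter of nucleosides and nucleobases with no CACGTG in the printed promoter, located at chr19:5024006-5031971 of mm10 on the plus strand. Its counts were 333 and 390 in MYC-WT, against 74 and 79 in MYC-deficient libraries, or 9.80 and 13.4 against 2.07 and 2.92 CPM. Every MYC-deficient library was thus below both MYC-WT libraries, and the gene was 4.67-fold lower (log2 fold change -2.22, standard error 0.28, adjusted p = 0.0116). Slc29a1, its abundant relative, had 95.3 and 105 CPM against 76.9 and 75.9 CPM, which gave a log2 fold change of -0.39 and missed the threshold (adjusted p = 0.0553, standard error 0.10). Slc29a3, the lysosomal nucleoside carrier, and Slc28a2, a sodium-coupled one, did not pass either, with log2 fold changes of -0.29 and 0.30.

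Vitamin carriers at the plasma membrane were lower in 2 of 5 cases and higher in none, where 9.91% of all genes tested were lower and 6.06% higher. Slc19a2, a thiamine carrier at chr1:164249046-164265385 of mm10 on the plus strand, had 1182 and 909 counts in MYC-WT, against 594 and 432 in MYC-deficient libraries, equal to 34.8 and 31.3 against 16.6 and 15.99 CPM. The genotypes were well apart and the fold change was 2.03 (log2 -1.02, standard error 0.12, adjusted p = 0.0108). Slc5a6, which carries biotin and pantothenate with sodium, had 22.4 and 21.4 CPM against 10.7 and 12.7 CPM (log2 fold change -0.91, standard error 0.15, adjusted p = 0.0178). Its exons share 9.92% of their bases with Atraid on the opposite strand, which had a log2 fold change of 0.30, and no source read states whether the counting used strand. The riboflavin carrier Slc52a2 was at 26.6 and 35.1 against 19.6 and 25.4 CPM (log2 fold change -0.46, adjusted p = 0.168), and the ascorbate carrier Slc23a2 and the folate carrier Slc46a1 were at 0.33 and 0.24 on the log2 scale, with none of these past the test. Slc23a2 had the highest level per kilobase of exon in the class.

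Zinc carriers formed the largest class, with 17 members, of which 3 were lower, 1 was higher and 13 did not pass (median log2 fold change 0.029). Lower carriers were 17.6% and higher ones 5.88% of the class, against 9.91% and 6.06% of all genes tested. SLC39 proteins bring zinc into the cytosol and SLC30 proteins take it out, into organelles or out of the cell. Slc39a6, an importer of the plasma membrane, had 115 and 128 CPM in MYC-WT and 74.5 and 84.6 CPM in MYC-deficient cells, and its fold change of 1.53 was close to the threshold of 1.5 (log2 -0.61, standard error 0.12, adjusted p = 0.0273) and missed it under RLE scaling (relative log expression), DESeq2 and limma-trend. Slc39a13, which releases zinc from vesicles and the Golgi, had 44.4 and 51.7 CPM against 28.9 and 28.6 CPM (log2 fold change -0.74, standard error 0.12, adjusted p = 0.0186), and 4.42% of its exon bases overlap Psmc3 on the opposite strand, which had 24703 counts over the libraries against 4814. Slc30a4, which loads zinc into endosomes and lysosomes, had 27.1 and 30.1 against 13.4 and 18.9 CPM (log2 fold change -0.83, standard error 0.19, adjusted p = 0.0419), and did not pass under RLE scaling.

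The zinc importer that was higher was Slc39a4, known for zinc uptake in the intestine, at 10.8 and 9.16 CPM in MYC-WT and 18.0 and 15.9 CPM in MYC-deficient cells (log2 fold change 0.77, standard error 0.16, adjusted p = 0.0332). It lies on chromosome 15, as does Myc, 14.6 Mb away. No tested carrier lay closer to Myc than Slc45a4, at 11.6 Mb. Slc39a1 was the most abundant zinc carrier per kilobase, with 144 and 148 CPM against 176 and 195 CPM, and Slc30a1, the exporter of the plasma membrane, had 24.4 and 23.2 CPM against 30.4 and 29.3 CPM. Neither passed (log2 fold changes 0.35 and 0.33, adjusted p = 0.0791 and 0.0964). Their genotypes did not overlap, as in 64.2% of all genes tested. Of 3 tested genes for zinc buffering and sensing (Mt1, Mt3 and Mtf1), none passed.

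Among carriers of ions, the cation-chloride cotransporters, which set cell volume and chloride, included Slc12a2 among the lower genes. Slc12a2, which brings sodium, potassium and chloride into the cell, had 728 and 563 counts in MYC-WT, against 367 and 292 in MYC-deficient libraries, or 21.4 and 19.4 against 10.3 and 10.8 CPM. It was 1.94-fold lower (log2 -0.95, standard error 0.14, adjusted p = 0.0147). The exporters Slc12a4 and Slc12a7 were at 0.36 and -0.04 on the log2 scale and did not pass, and Slc12a4 had the highest level per kilobase in the class. Of 21 tested genes for volume and chloride control outside the SLC families, 2 were higher, Lrrc8c, a subunit of volume-regulated anion channels (log2 fold change 0.79), and Ttyh3 (0.84), and none was lower. The higher genes were 9.52% of this list, against 6.06% of all genes tested.

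Sodium-proton exchangers raise cytosolic pH or set that of endosomes. The exchanger that passed was Slc9a9, of endosomes, at chr9:94669909-95230445 of mm10 on the plus strand, with the largest increase of all the carriers that were tested. Its counts were 672 and 283 in MYC-WT, against 1966 and 924 in MYC-deficient libraries, or 19.8 and 9.75 against 55.0 and 34.2 CPM. The genotypes did not overlap, but replicate 1 was well above replicate 2 in both, and the 3.02-fold increase had a wide error (log2 1.59, standard error 0.39, adjusted p = 0.0472). It fell short of the test with scaling by total counts only. Slc9a7, an exchanger of the Golgi and endosomes, had 9.36 and 5.79 CPM against 16.2 and 11.5 CPM and did not pass (log2 fold change 0.87, adjusted p = 0.10).

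Sodium-calcium exchangers were few, and 3 of 4 passed, where 16% of all genes tested did. Slc8b1, which takes calcium out of mitochondria, rose from 67.1 and 71.6 CPM to 110 and 122 CPM (log2 fold change 0.74, standard error 0.11, adjusted p = 0.0151). Slc24a3, a potassium-dependent exchanger, had 123 and 135 counts in MYC-WT, against 288 and 378 in MYC-deficient libraries, or 3.62 and 4.65 against 8.06 and 13.99 CPM, and was 2.66-fold higher (log2 1.41, standard error 0.32, adjusted p = 0.0394). Slc24a5, known from pigment granules, was 2.31-fold lower at only 92 and 83 against 51 and 26 counts (log2 -1.21, standard error 0.30, adjusted p = 0.0481), and did not pass under RLE scaling, in the filtered table alone or with limma-trend. Of its exon bases 39.5% overlap Myef2 on the opposite strand, which had 1289 and 1009 against 1335 and 775 counts, so that without a stated strand setting the reads of both genes cannot be told apart. Slc8a1, the main exchanger of the plasma membrane in many cells, was at 0.51 on the log2 scale (adjusted p = 0.145).

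Of 6 carriers of copper, magnesium and haem 2 were higher (33.3%, against 6.06% of all genes tested) and none lower. Both were among the 3 magnesium carriers of the SLC41 family. Slc41a2 was at 31.8 and 30.1 CPM in MYC-WT and 41.6 and 55.0 CPM in MYC-deficient cells (log2 fold change 0.64, adjusted p = 0.0494), just past the threshold and not past it under RLE scaling or scaling by total counts. Slc41a3, a magnesium carrier of mitochondria, had 15.1 and 18.7 against 26.0 and 28.9 CPM (log2 fold change 0.70, standard error 0.16, adjusted p = 0.0368), and Slc41a1 was at -0.24 (adjusted p = 0.229). Copper and haem carriers did not pass. Slc31a1, which takes up copper, was at -0.18, while Slc31a2 had an adjusted p = 0.0458 but a fold of only 1.43. Slc48a1, which returns haem from lysosomes to the cytosol and was second in level per kilobase of exon among all the carriers, had 257 and 262 CPM against 292 and 409 CPM (log2 fold change 0.43, adjusted p = 0.154). Of 12 other tested genes of metal handling 1 passed, Steap4, which was lower at 38 and 16 against 8 and 4 counts (log2 fold change -2.13). Lower genes were thus 8.33% of this list, against 9.91% of all genes tested.

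Carriers of sugars went both ways, with 6 of 11 above 0 and 5 below on the log2 scale (median 0.044, range -0.884 to 1.072). Slc2a6, a hexose carrier of lysosomes, was the sugar carrier that passed, with 563 and 590 counts in MYC-WT, against 1146 and 1230 in MYC-deficient libraries, or 16.6 and 20.3 against 32.1 and 45.5 CPM. It was 2.10-fold higher (log2 1.07, standard error 0.21, adjusted p = 0.028), with no overlap between the genotypes. Slc37a2, a sugar phosphate exchanger of the endoplasmic reticulum (ER) and the third most abundant carrier per kilobase of exon, had 376 and 501 CPM against 583 and 816 CPM. Its genotypes did not overlap, as in 64.2% of all genes tested. Its replicates were far apart and it did not pass (log2 0.67, standard error 0.23, adjusted p = 0.0961). Slc2a3, a high-affinity glucose carrier, was at -0.30 (adjusted p = 0.199), and Slc45a3 at -0.88 (adjusted p = 0.0637).

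Carriers of nucleotide sugars and of the sulfate donor PAPS feed glycosylation in the Golgi and the ER. Of 13, 2 were higher (15.4%, against 6.06% of all genes tested), none was lower and the median was -0.03. Slc35d2, which carries UDP-N-acetylglucosamine, had 7.33 and 8.13 CPM in MYC-WT and 12.8 and 13.0 CPM in MYC-deficient cells (log2 fold change 0.74, standard error 0.16, adjusted p = 0.0328). It lost its call whenever any of the 4 libraries was left out. Slc35a5, a Golgi carrier of the same subfamily as the sialic acid donor carrier, had 42.2 and 34.8 CPM against 64.8 and 57.0 CPM (log2 fold change 0.66, standard error 0.14, adjusted p = 0.0346). Slc35d1, and Slc35a4, which was the most abundant of the class per kilobase, had adjusted p = 0.0367 and 0.042 but were lower by less than 1.5-fold (1.49 and 1.43). Of 26 tested genes that make sugar donors, 2 were lower, Galk1, a galactose kinase, and Pgm1, a phosphoglucomutase (log2 fold changes -1.51 and -0.76). That was 7.69% of the list, against 9.91% of all genes tested.

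The class of amino acids and creatine, which also holds a monoamine carrier, had 6 tested genes, of which 1 was higher and none lower. Of 5 carriers of choline, carnitine and organic ions 1 was higher and none lower. Higher shares were 16.7% and 20%, against 6.06% of all genes tested. Slc36a1, which moves small amino acids out of lysosomes with protons and whose printed promoter holds CACGTG, had 48.4 and 38.2 CPM in MYC-WT and 75.6 and 74.7 CPM in MYC-deficient cells (log2 fold change 0.79, standard error 0.14, adjusted p = 0.0229). Slc6a8, the creatine carrier, was at 173 and 210 CPM against 242 and 310 CPM and did not pass (log2 0.53, adjusted p = 0.0888). Slc44a2, a choline carrier, rose from 49.0 and 48.4 CPM to 80.9 and 93.5 CPM (log2 0.84, standard error 0.12, adjusted p = 0.0139), with replicates close together. Slc44a1, the more abundant choline carrier, was at 0.44 (adjusted p = 0.0777), and Slc22a4, which carries ergothioneine, at 0.91 (adjusted p = 0.0841). The last had 15.5 and 22.8 CPM against 27.8 and 44.1 CPM, with replicate 2 above replicate 1 in both genotypes.

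Vesicular carriers load small molecules into secretory vesicles, and the 3 that were tested all had negative log2 fold changes. Slc17a9, which packs ATP, had 391 and 393 counts in MYC-WT, against 234 and 150 in MYC-deficient libraries, or 11.5 and 13.5 against 6.55 and 5.55 CPM, and was 2.07-fold lower (log2 -1.05, standard error 0.19, adjusted p = 0.0223). Slc18a1, a vesicular monoamine carrier, and Slc18b1, a vesicular polyamine carrier, differed by more than 2-fold but did not pass (log2 -1.42 and -1.24, adjusted p = 0.0769 and 0.0984), at 4.77 and 8.40 against 1.71 and 3.26 CPM and at 5.62 and 2.82 against 2.13 and 1.44 CPM. The genotypes did not overlap in either, as in 64.2% of all genes tested.

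No carrier of peptides, of phosphate and carboxylates, of bicarbonate and other anions, or of fatty acids passed. All 4 peptide carriers had positive log2 fold changes, from 0.50 for Slc15a4, of lysosomes, to 0.91 for Slc15a3, and Slc15a4 had an adjusted p = 0.0367 with a fold of 1.41. Of the exon bases of Slc15a3, 28.1% overlap Tmem132a on the opposite strand, which had 165 and 187 against 288 and 302 counts (log2 0.77, adjusted p = 0.0941). All 4 carriers of phosphate and carboxylates were also above 0, with 0.67 for the dicarboxylate carrier Slc13a3 (adjusted p = 0.0991), and 0.28 for Slc20a1, a phosphate importer and the most abundant of them per kilobase (adjusted p = 0.295). Of 5 tested bicarbonate and anion carriers, Slc4a7, which brings in bicarbonate with sodium, was the most abundant at 479 and 417 against 522 and 549 CPM (log2 0.26, adjusted p = 0.211). Slc27a1, which takes up fatty acids, had 277 and 361 against 326 and 424 CPM (log2 0.23, adjusted p = 0.437).

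Among carriers with no settled substrate, 1 was lower and 1 higher of 11, or 9.09% each, against 9.91% and 6.06% of all genes tested. Slc35g1 had 799 and 601 counts in MYC-WT, against 340 and 189 in MYC-deficient libraries, or 23.5 and 20.7 against 9.51 and 6.99 CPM, and its 2.67-fold decrease was the second largest of those that passed (log2 -1.42, standard error 0.20, adjusted p = 0.0138). Slc22a18, an imprinted gene in the mouse, had few counts, 61 and 50 against 128 and 111, and was 2.18-fold higher (log2 1.12, standard error 0.24, adjusted p = 0.0331). Slc35e1, the most abundant per kilobase, had an adjusted p = 0.0381 with a fold of 1.34. Slc9a3r1, the scaffold protein, was higher at 69.3 and 72.1 against 103 and 115 CPM (log2 0.63, standard error 0.11, adjusted p = 0.0207).

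**Figure D2:**
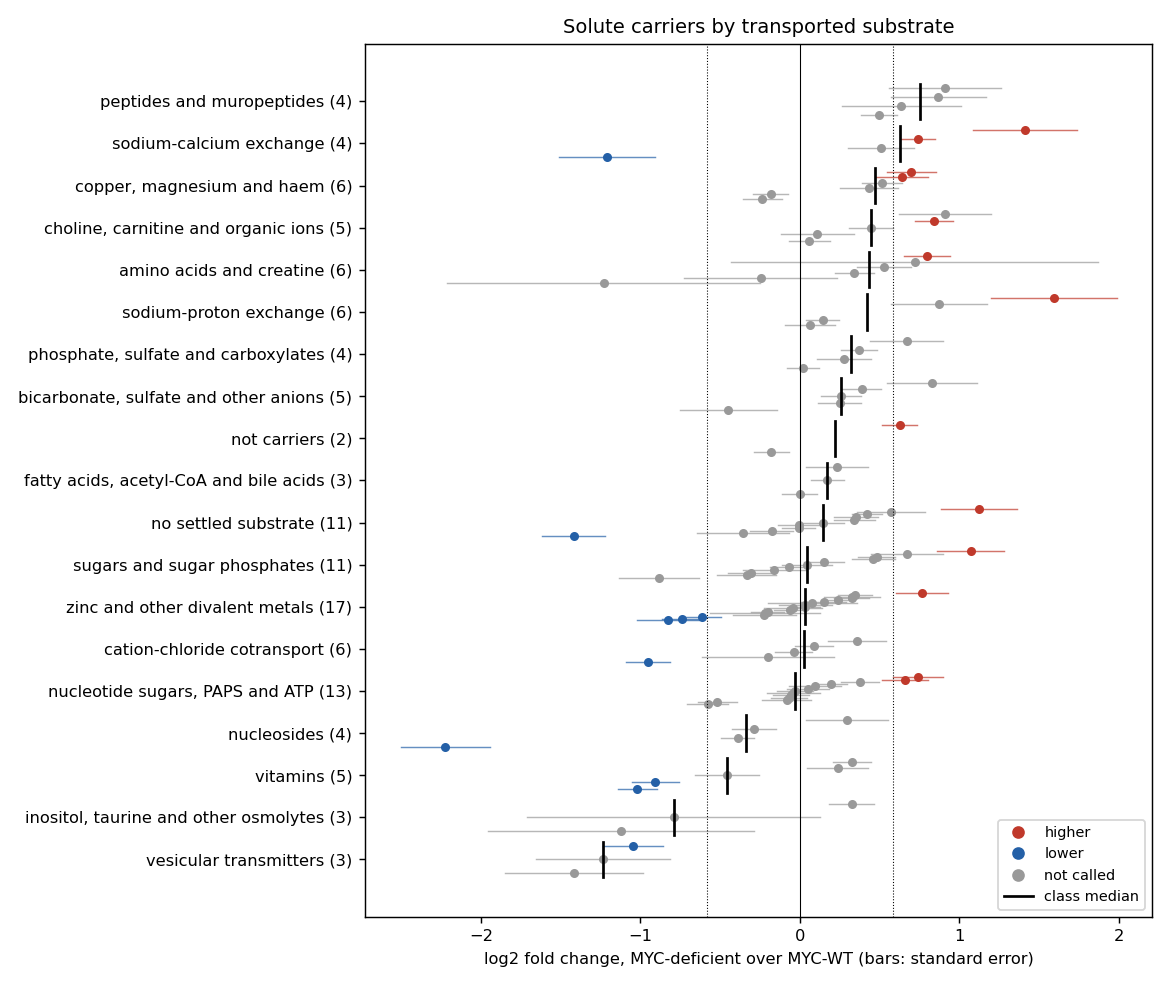
Log2 fold change of MYC-deficient over MYC-WT cells for 115 of the 118 tested genes by transported substrate (number of tested genes in brackets, 3 of them not drawn), with standard errors as bars, medians of all tested genes of a class as black lines, and dotted lines at a fold of 1.5. Class medians run from -1.237 for vesicular carriers to 0.753 for peptide carriers, and 23 of the genes drawn passed the test (red, higher, and blue, lower).

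By membrane, 14 of 19 carriers of lysosomes and endosomes had positive log2 fold changes (median 0.452), and 3 were higher and 2 lower. At the plasma membrane 5 of 53 were higher and 5 lower (median 0.234), and in the Golgi and ER 2 of 30 were higher and 2 lower (median -0.015). Higher shares were 15.8%, 9.43% and 6.67% in this order, against 6.06% of all genes tested. Lower shares were 10.5%, 9.43% and 6.67%, against 9.91%. Of 15 genes with another or an unsure place 3 were higher (20%) and 1 lower (6.67%, median 0.241). Slc8b1, assigned to mitochondria, was higher. The assignment to membranes is from general knowledge, and many carriers are found in more than 1 place.

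Levels of the carriers spanned a wide range. In MYC-WT cells 42 of the 121 carriers were above 10 CPM per kilobase of exon, 67 between 1 and 10, and 12 below 1, with medians of 5.92 in MYC-WT and 6.53 in MYC-deficient cells. The first place in both genotypes belonged to Slc6a6, the taurine carrier, at 174 and 218 CPM per kilobase. Its counts alone made 16.8% to 19.9% of all counts of the 121 genes, and its level of 1565 and 1378 against 1860 and 1826 CPM was a log2 difference of 0.33 that did not pass (adjusted p = 0.164). Slc48a1, Slc37a2, Slc39a1 and Slc27a1 followed in this order in both genotypes. The carriers together took 0.842% and 0.816% of the counts of MYC-WT and 0.935% and 0.99% of those of MYC-deficient libraries. Low counts limited few of them, since 105 had at least 100 counts in every library. The 3 that could not be tested, among them Slc14a2 and Slc4a8, had at most 27 counts in any library.

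**Figure D3:**
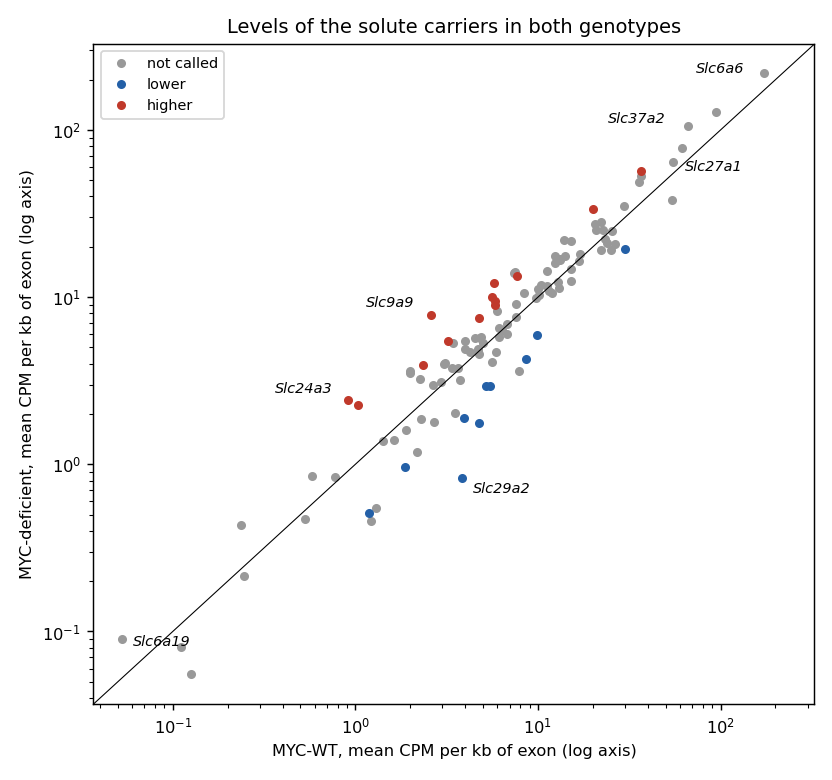
Mean CPM per kilobase of exon of 115 tested genes in MYC-WT (x axis) and MYC-deficient cells (y axis), both on log axes, with the line of equal level. The taurine carrier Slc6a6 is at the top at 174 and 218 CPM per kilobase, and the genes that passed lie mostly in the middle of the range.

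Some carriers differed widely between replicates. Slc5a3, the sodium-coupled carrier of myo-inositol, had 4678 and 988 counts in MYC-WT, against 2219 and 452 in MYC-deficient libraries, or 138 and 34.0 against 62.1 and 16.7 CPM. At each replicate number the MYC-deficient library was the lower. Replicate 1 was 4.05-fold above replicate 2 in MYC-WT and 3.71-fold in MYC-deficient cells, the genotypes overlapped, and the log2 difference of -1.12 was not past the test (adjusted p = 0.383, standard error 0.83). Without MYC-WT replicate 1 it was 0.21, and without MYC-deficient replicate 1 it was -2.34. Slc6a12, the carrier of betaine and GABA, behaved alike, with 17.8 and 3.65 CPM against 10.0 and 2.33 CPM (log2 -0.79, standard error 0.92, adjusted p = 0.583). Both proteins take up osmolytes that balance the cell against hypertonic medium. Slc6a6, a carrier of another osmolyte, had a ratio of replicate 1 to replicate 2 of 1.14 and 1.02. Ranked by the smaller of the replicate gaps in both genotypes, Slc6a12 and Slc5a3 were at places 3 and 6 of 9152 genes with a log2 CPM of at least 3.

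In 2 further carriers the replicates differed more than 2-fold in both genotypes, with replicate 2 higher, and both had low counts. Slc6a17, a vesicular amino acid carrier of neurons, had 19 and 59 counts in MYC-WT, against 5 and 27 in MYC-deficient libraries (log2 fold change -1.23, adjusted p = 0.416), and Slc6a19 had 5 and 11 against 2 and 23. Over all tested carriers the median gap between replicates was 0.161 on the log2 scale in MYC-WT and 0.20 in MYC-deficient cells, close to the 0.193 and 0.201 of all genes tested.

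**Figure D4:**
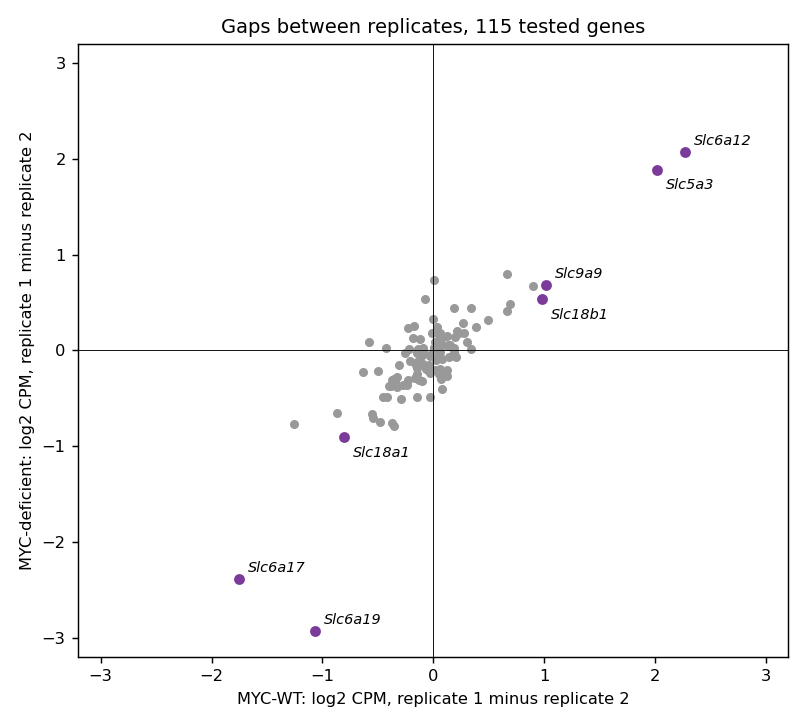
Log2 CPM of replicate 1 minus that of replicate 2 in MYC-WT (x axis) and MYC-deficient cells (y axis) for 115 tested genes, with a few genes named in purple. Slc6a12 and Slc5a3 stand apart at 2.27 and 2.02 in MYC-WT, against 2.07 and 1.89 in MYC-deficient cells.

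Transporters that the naming rule does not reach were listed too. Of 36 tested transporters whose symbol does not begin with Slc and a number, SLCO carriers among them, 4 were higher and 1 lower (median log2 fold change 0.259), with 1.55 for Slco3a1, an organic anion carrier, 1.09 for Mfsd6, 0.76 for Npc1, the cholesterol exporter of lysosomes, 0.65 for Pqlc3 and -0.73 for Mfsd10. Of 29 ABC transporters 4 were higher and none lower (median 0.264), at 1.02 for Abcc3, 0.65 for Abca7, 1.60 for Abcg3 and 1.11 for Abcb9. Of 13 tested ion ATPases 1 was higher, Atp2a3, a calcium pump of the ER, at 30.6 and 29.9 against 86.7 and 98.0 CPM (log2 1.61, standard error 0.12, adjusted p = 0.00711). Higher genes were 11.1%, 13.8% and 7.69% of these lists in this order, against 6.06% of all genes tested. Lower genes were 2.78%, 0% and 0%, against 9.91%.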

How the data were processed

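RNA-seq libraries of MYC-WT and MYC-deficient BMDMs after 1 day of RANKL (2 each) were used. The authors deposited raw counts per gene on mm10, the same counts for a filtered set of genes (the filter is not described), and log2 CPM of that set. Tools named in the processing notes of the submitters, with no order or role, are STAR 2.7.3a, edgeR, bcl2fastq 1.8.4 and fastp. No source used here gives the tool that counted reads, its strand setting or the annotation.

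The test used all counted genes in edgeR 4.0.16 (R 4.3.3). Low genes were removed by filterByExpr with a minimum count of 10 and a minimum total of 15, TMM scaling was applied, and genotypes were compared with the quasi-likelihood test, with Benjamini-Hochberg adjustment over 13436 genes and thresholds of 0.05 and 1.5-fold. The standard error was taken as the absolute log2 fold change over the square root of the F statistic. Exon lengths and overlaps are from GENCODE M21, where 116 of the 121 genes have the coordinates of the files. Libraries held 27544806 to 35794698 counts. The test was also run on simulated counts with planted changes of at least 2-fold. Their replicates were independent and varied less than these (common biological coefficient of variation 0.167). Detection of changes under 2-fold was therefore not checked.

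The members, substrate classes and gene lists were chosen from general knowledge with earlier results of these data known, so no set test was run. Named genes are those that passed, the most abundant of each class per kilobase, those over 2-fold that did not pass and up to 4 per related list and direction. Other genes were named after their values were seen. The results of a few genes are not reported here, although they count in the totals. Alternatives were RLE or total count scaling, no filter, the filtered table, DESeq2 1.42.0, limma-trend (3.58.1) on the deposited log2 CPM, a fold of 2, a block for the replicate number, and removal of each library in turn. P-values measure only the spread between these libraries.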

Additional observations from a re-analysis of the deposited data

How the results depend on the processing

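None of the 24 carriers that passed changed direction under any of the 12 alternatives. The number higher (14) and lower (10) was 23 and 17 with no filter on low counts, 22 and 16 with the replicate number as a block, and 4 and 5 at a fold over 2. Over all genes the main fit had 814 higher and 1331 lower of 13436. These were 1385 and 1797 of 24030 with no filter, 1400 and 1774 with the block, and 349 and 689 at a fold over 2. Leaving out 1 library gave 0 to 18 higher and 0 to 10 lower, with the lowest numbers without MYC-WT replicate 2. RLE scaling, total counts alone, the filtered table, DESeq2 and limma-trend gave 12 to 20 higher and 7 to 11 lower. Slc35d2 lost its call without each of the 4 libraries. Slc24a5, Slc39a6 and Slc41a2 lost their call in 6, 7 and 6 of the 12 alternatives, while Slc29a2 and Slc19a2 lost it in 1, without MYC-WT replicate 2. The log2 fold change of Slc5a3 was -1.12, and without each library in turn it lay between -2.34 (without MYC-deficient replicate 1) and 0.21 (without MYC-WT replicate 1). Whether equal replicate numbers mark a shared litter or day is not stated. Their deviations correlated across genes (0.499), and the replicate block kept all 24 calls and added 14 carriers, among them Slc5a3 (log2 -1.09, adjusted p = 0.000628), Slc6a17 (-1.29, adjusted p = 0.0308), Slc6a12, Slc18a1 and Slc37a2. The causes of these changes were not tested. With 2 libraries per genotype the spread of each gene is poorly known, and a carrier that did not pass is not shown to be unchanged.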

Other observations

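Solute carriers that fit the naming rule but are not in the authors' filtered table numbered 113, and 19 of these passed the count filter. None of the 19 passed edgeR's quasi-likelihood test with the thresholds above (4 had an unadjusted p under 0.05), and DESeq2 called 0 of the 16 to which it gave an adjusted p. They were all low. Slc52a3, a riboflavin carrier, had 21 and 13 counts in MYC-WT, against 42 and 56 in MYC-deficient libraries (log2 fold change 1.58, adjusted p = 0.0553). Slc9b1, an exchanger related to Slc9b2, had 15 and 12 against 2 and 4 counts (log2 fold change -2.10, adjusted p = 0.0567), and the glycine carrier Slc6a9 had 67 and 36 against 28 and 12 (log2 fold change -1.37, adjusted p = 0.0812).

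The replicate gap of the osmolyte carriers Slc5a3 and Slc6a12 was looked for in 3 related genes, chosen after the values were seen. Slc6a13, a carrier from the same family as Slc6a12, had 47 and 12 counts in MYC-WT, against 39 and 8 in MYC-deficient libraries, with replicate 1 3.35-fold and 3.69-fold above replicate 2 in CPM. Akr1b3, which makes the osmolyte sorbitol, had 116 and 129 CPM in MYC-WT and 105 and 126 CPM in MYC-deficient cells, and Nfat5, a transcription factor of the response to hypertonic medium, had 130 and 111 against 120 and 110 CPM, with no such gap. These are RNA levels only, and the cause of the replicate gap was not tested.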
